A study of Drosophila melanogaster with 2 samples.

Results

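Cytosolic ribosomal protein genes were examined for binding of CG13287 in Drosophila melanogaster embryos. The set held the 93 protein-coding genes whose symbol starts with RpL or RpS and a digit or with RpLP and a digit, plus sta, out of 13968 protein-coding genes that the Ensembl BDGP6.54 annotation places on the chromosome arms. By name 54 encoded proteins of the large (60S) subunit and 39, sta among them, proteins of the small (40S) subunit. Binding was measured by chromatin immunoprecipitation and sequencing (ChIP-seq) with an anti-GFP antibody in whole embryos aged 6 to 24 h of a strain with an insertion that expresses a CG13287-eGFP fusion. There were 2 biological replicates of this 1 group, no second genotype, stage or treatment, and no peak list of a control. The promoter that drives the fusion is not given in the sources used here, and a collection of whole embryos of these ages mixes many stages and all tissues. Only peak lists were analysed, which do not give the depth of the libraries.

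Ribosomal proteins coat and hold in shape the ribosomal RNA of the 2 subunits, and their genes are transcribed together at high levels in almost every cell. In Drosophila many of their promoters lack a TATA box and start transcription within a short pyrimidine run, the TCT initiator. Loss of a single copy of many of these genes gives the Minute phenotype of slow development and short, thin bristles. The DNA replication-related element (DRE), bound by the factor Dref, and the site of the zinc finger protein M1BP are known elements of housekeeping promoters, ribosomal protein promoters among them.

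A gene was counted as having a peak when the summit of a peak lay within 500 bp of one of its transcription start sites (TSSs). In the conservative list of both replicates, 61 of the 93 ribosomal protein genes had a peak, 65.6% with an exact 95% interval of 55.0% to 75.1%, against 39.8% of all protein-coding genes. Intervals here cover counting error only, and all protein-coding genes include the ribosomal protein genes. Ribosomal protein genes had 1.70 distinct TSSs on average and all protein-coding genes 1.40, which gives the first more chances to lie near a summit. Among genes with 1 TSS, an alternative added after seeing the data, 30 of 48 ribosomal protein genes had a conservative peak, 62.5% with an interval of 47.4% to 76.0%, against 34.5% of all such genes. In the optimal list 70 ribosomal protein genes had a peak (75.3%), against 43.7% of all genes. The replicate 1 list had a peak at 53 of them (57.0%), against 30.3% of all genes, and the replicate 2 list at 74 (79.6%), against 44.9% of all genes. The share was higher among ribosomal protein genes in each of these 4 filtered lists, and in each the lower bound of its interval lay above the share of all genes.

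**Figure D1:**
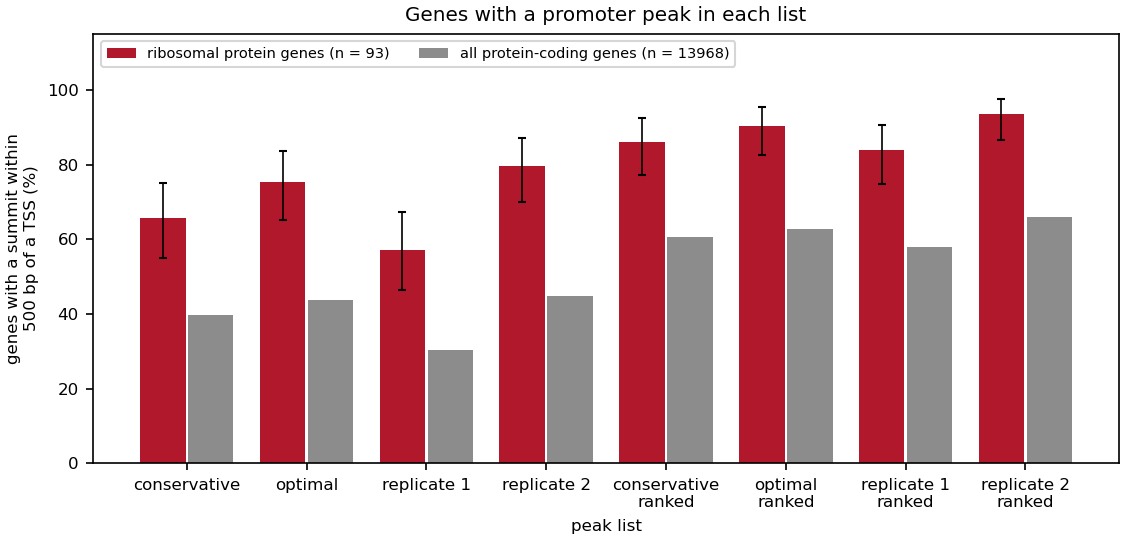
Share of genes with a peak summit within 500 bp of a TSS (y axis, percent) in each of the 8 deposited peak lists (x axis), for the 93 ribosomal protein genes and for all 13968 protein-coding genes. Error bars are exact 95% intervals of the ribosomal protein genes' share. The ribosomal protein genes' share lay between 57.0% and 93.5%, above that of all genes in every list.

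The longer ranked lists, which hold weaker entries too, gave the same order. Ribosomal protein genes with an entry numbered 80 in the conservative ranked list (86.0%, against 60.7% of all genes) and 84 in the optimal ranked list (90.3%, against 62.8%). In the ranked lists of single replicates they numbered 78 in replicate 1 (83.9%, against 58.0% of all genes) and 87 in replicate 2 (93.5%, against 66.1%). All 4 filtered lists held a peak at 52 ribosomal protein genes (55.9%, against 29.4% of all genes). At least 1 filtered list held a peak at 78 of them (83.9%, against 47.7%), and 6 had no entry in any list (6.45%, against 29.7%).

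The intervals of the 2 subunits overlapped. In the conservative list 33 of 54 large-subunit genes had a peak, 61.1% with an interval of 46.9% to 74.1%, and 28 of 39 small-subunit genes, 71.8% with an interval of 55.1% to 85.0%. In replicate 1 the counts were 30 of 54 large-subunit and 23 of 39 small-subunit genes, and in replicate 2 they were 43 of 54 and 31 of 39. The signal, which is the deposited peak value in the peak caller's own units, had a median of 348.0 at the highest conservative peak of the 61 ribosomal protein genes, against 254.7 at that of all genes with a peak. As a percentile, the percent of the list's peaks at or below a gene's signal, the medians were 74.7 for ribosomal protein genes and 65.2 for all genes with a peak. In the single lists the median percentiles were 68.7 against 61.4 for all genes in replicate 1, and 72.5 against 67.1 for all genes in replicate 2.

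**Figure D2:**
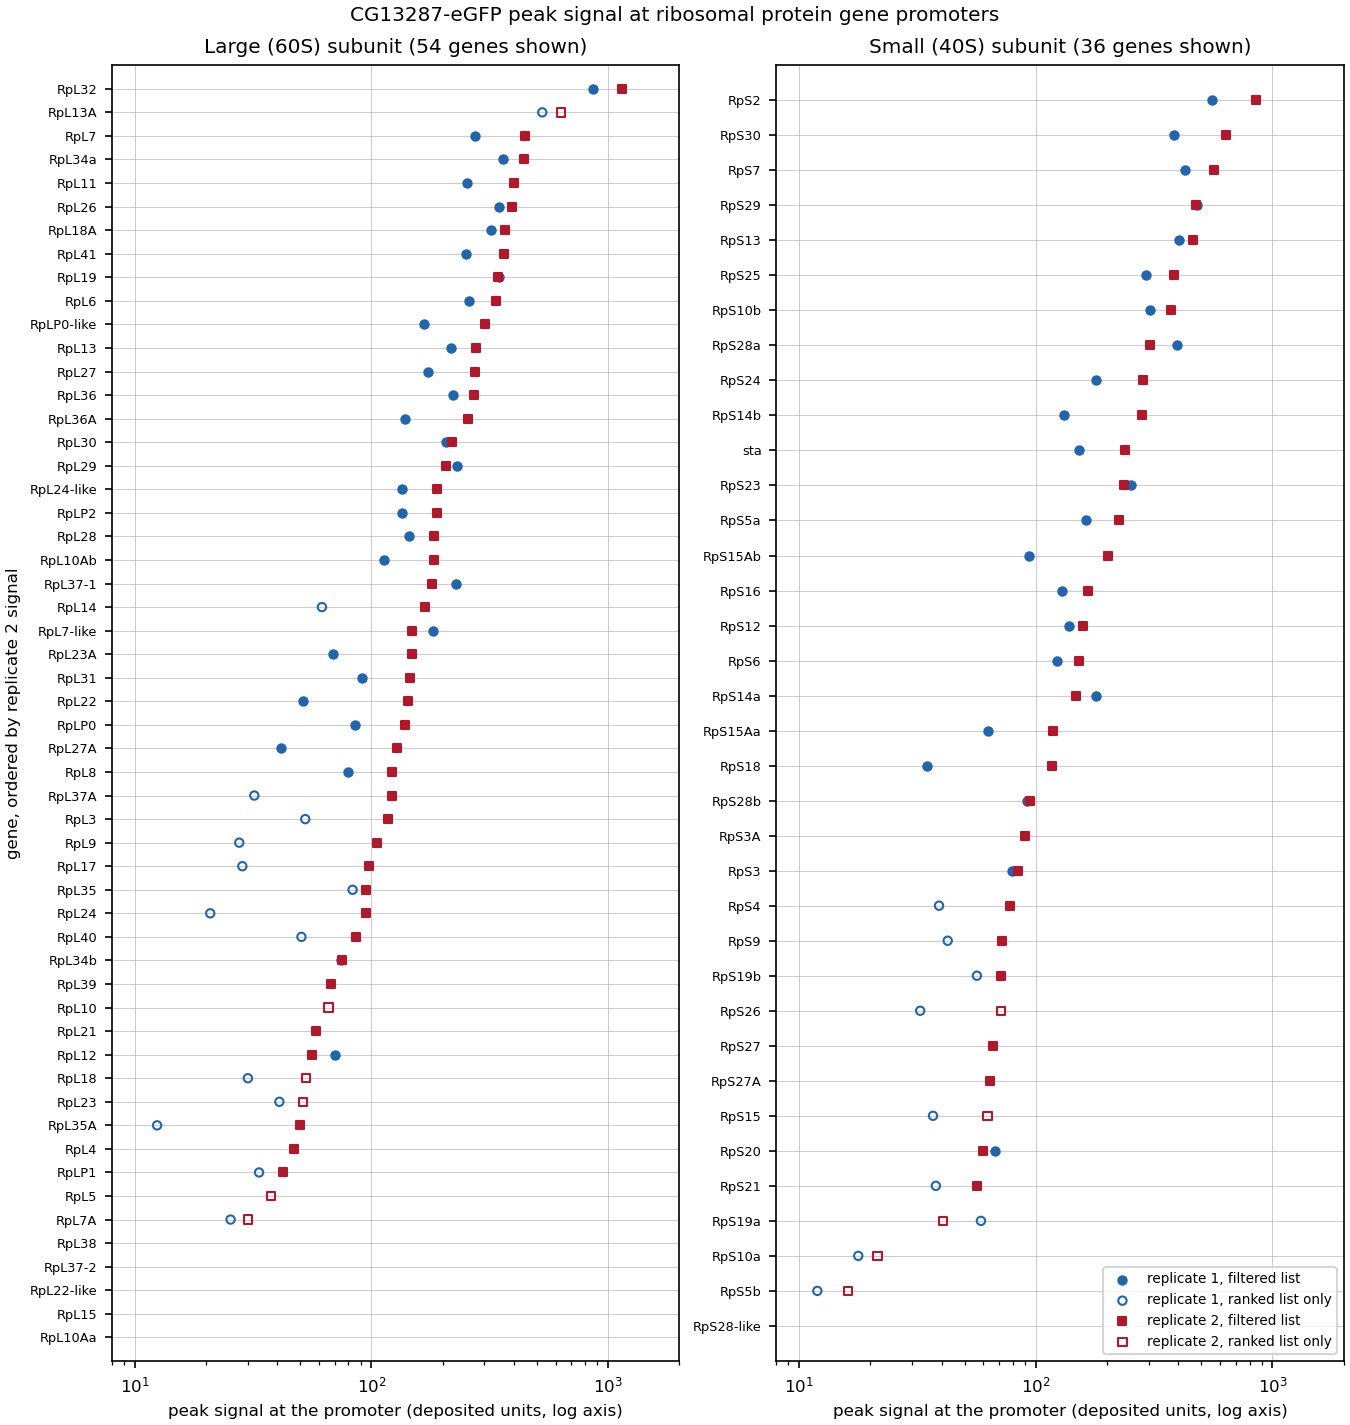
Highest peak signal within 500 bp of a TSS (x axis, deposited units on a log scale) for the 54 large-subunit genes and 36 of the 39 small-subunit genes (y axis, ordered by replicate 2 signal), in replicate 1 (circles) and replicate 2 (squares). Filled symbols are entries of the filtered lists and open symbols are entries found in the ranked list alone, and whether the replicates share 1 scale is not stated. RpL32 and RpS2 lead the 2 panels, RpL13A is the one gene with open symbols near the top. The 6 genes with no entry in any list are the rows without a symbol, RpS28-like among them, and 3 small-subunit genes, each with a ranked entry, are not drawn or named here.

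The highest signal among ribosomal protein genes belonged to RpL32, a large-subunit gene widely used as a reference transcript under its older name rp49. RpL32 had a signal of 1987 in the conservative list, 860.3 in replicate 1 and 1145 in replicate 2, with ranks of 8 of 5955, 11 of 3997 and 9 of 7340 peaks. Its peak covered chr3R:30045905-30046547 of dm6, and its summit lay 72 bp upstream of the TSS. The peak stood among the highest of all promoters in both replicates.

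RpS2, a small-subunit protein near the path by which messenger RNA enters the ribosome, came next with a signal of 1404 in the conservative list, 556.1 in replicate 1 and 855.0 in replicate 2, and a summit 31 bp upstream of the TSS. RpS30, which is made as a fusion to a ubiquitin-like protein, had 1034, 381.7 and 634.3 in the same 3 lists, and its summit lay 14 bp upstream. RpS7, another small-subunit gene, had 1007, 426.0 and 566.4, with its summit 65 bp upstream. No other protein-coding gene has its TSS within 500 bp of the TSSs of these 3 genes, and all 3 peaks ranked within the first 200 of the conservative list.

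RpS29, a small zinc-binding protein of the 40S subunit, had a signal of 960.3 in the conservative list, 477.6 in replicate 1 and 477.4 in replicate 2. RpS13 had 871.2, 400.9 and 460.3, with the summit 62 bp upstream of its TSS. RpL7 had 727.0, 274.1 and 444.5, with its summit 10 bp downstream of the TSS. The rest of the 12 highest were RpL34a (795.4 in the conservative list), RpS28a (736.9), RpL26 (722.2), RpL19 (690.0) and RpS25 (671.9). All 12 had a peak in both single-replicate lists, and in 9 of the 12 the replicate 2 signal was the higher one, the exceptions being RpS28a, RpS29 and RpL19.

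The sequences below run from 120 bases before to 20 bases after the TSS on the gene's strand, read from the Release 6 (dm6) genome. RpL32, RpS2, RpS30, RpS7, RpS29, RpS13 and RpL7 are shown since their peaks are among the 12 highest, RpL13A for its entries in the ranked lists alone, and RpL15 and RpL10Aa since they had no entry in any list. They were chosen after the values had been seen. Capitals mark the DRE (TATCGATA) or its core ATCGAT, the Ohler 7 motif (CANCNCTA) and the M1BP site (GGTCACAC) on either strand, and, on the gene's strand, the TCT initiator (TCTTTT or CCTTTT with its second base within 5 bases of the TSS).
RpL32, chr3R:30046141-30046281, minus strand: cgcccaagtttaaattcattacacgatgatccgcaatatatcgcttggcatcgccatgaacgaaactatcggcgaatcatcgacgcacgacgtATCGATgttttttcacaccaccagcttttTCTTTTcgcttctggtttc
RpS2, chr2L:9897532-9897672, minus strand: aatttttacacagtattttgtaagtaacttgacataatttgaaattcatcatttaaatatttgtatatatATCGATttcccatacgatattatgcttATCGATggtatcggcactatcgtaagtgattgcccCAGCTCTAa
RpS30, chr3R:20850396-20850536, plus strand: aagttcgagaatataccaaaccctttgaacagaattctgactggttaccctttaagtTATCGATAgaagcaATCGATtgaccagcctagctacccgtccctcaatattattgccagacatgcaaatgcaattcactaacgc
RpS7, chr3R:30209000-30209140, minus strand: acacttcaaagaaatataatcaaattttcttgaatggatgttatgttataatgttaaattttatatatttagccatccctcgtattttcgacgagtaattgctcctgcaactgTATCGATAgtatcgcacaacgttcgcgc
RpS29, chr3R:9777922-9778062, plus strand: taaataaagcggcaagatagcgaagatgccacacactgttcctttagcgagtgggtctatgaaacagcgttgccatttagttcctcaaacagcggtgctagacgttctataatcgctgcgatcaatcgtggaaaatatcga
RpS13, chr2L:8364642-8364782, minus strand: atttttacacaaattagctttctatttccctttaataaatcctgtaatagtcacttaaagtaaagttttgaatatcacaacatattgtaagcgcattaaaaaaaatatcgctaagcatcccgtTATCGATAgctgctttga
RpL7, chr2L:10200884-10201024, plus strand: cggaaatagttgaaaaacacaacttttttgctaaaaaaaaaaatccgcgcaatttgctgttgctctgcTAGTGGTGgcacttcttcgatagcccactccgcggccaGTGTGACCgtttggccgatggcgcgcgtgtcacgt
RpL13A, chr3R:5624354-5624494, plus strand: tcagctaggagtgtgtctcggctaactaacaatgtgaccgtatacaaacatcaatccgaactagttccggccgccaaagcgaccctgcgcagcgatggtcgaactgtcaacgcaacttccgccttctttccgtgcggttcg
RpL15, chr3L:27267135-27267275, plus strand: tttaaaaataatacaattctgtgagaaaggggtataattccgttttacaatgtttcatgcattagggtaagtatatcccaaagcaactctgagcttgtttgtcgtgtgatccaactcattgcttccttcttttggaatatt
RpL10Aa, chr3R:15037246-15037386, plus strand: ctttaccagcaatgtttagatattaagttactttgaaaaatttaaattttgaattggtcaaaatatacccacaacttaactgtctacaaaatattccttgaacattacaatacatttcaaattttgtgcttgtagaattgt

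A DRE begins 63 bases before the TSS of RpS30, 7 before that of RpS7 and 3 after that of RpS13. The core ATCGAT occurs once in the RpL32 window and at 2 places in that of RpS2, where no whole DRE is found. The second base of the TCT initiator of RpL32 lies 3 bases after the annotated TSS. In the search of all TSSs described below, RpS30, RpS13 and RpS29 had a TCT initiator too. In that search RpS7, RpS13 and RpS29 had an Ohler 7 motif, though the windows shown mark none of these. The windows of RpS29, RpL13A, RpL15 and RpL10Aa have no capitals, and RpS29 is the 1 of these with a peak in the filtered lists. The RpS29 window breaks off within a DRE (at the letters tatcga), which was found 38 bases from the summit. RpL15 has the letters tctttt farther than 5 bases after its TSS. The RpL13A summit, 272 bp upstream of the TSS, lies outside the window shown.

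The stalk proteins of the large subunit, which recruit the translation factors that hydrolyse GTP, did not share 1 level. RpLP0, the base of the stalk, had a signal of 209.6 in the conservative list, 85.5 in replicate 1 and 138.3 in replicate 2. RpLP2 had 311.8, 134.7 and 189.1, and its summit lay 452 bp upstream of its TSS, close to the limit of 500 bp. RpLP1 had no conservative or replicate 1 peak, a signal of 73.7 in the optimal list and 42.3 in replicate 2. The nearest conservative summit to RpLP1 was 1536 bp away. The gene sta (stubarista), the small-subunit member whose symbol does not follow the RpS pattern, had 393.1 in the conservative list, 151.8 in replicate 1 and 237.0 in replicate 2.

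When each gene was taken at its highest conservative peak, the 3 lowest signals belonged to small-subunit genes. Weaker second peaks are left out of this order, such as that of RpL29, 33 bp from its TSS (23.1). RpS21 had a signal of 52.1, with its summit 378 bp upstream of its TSS and 86 bp from that of CG3104. RpS15 had 75.0 and was the 1 member with a conservative and no optimal peak, and RpS19b had 116.7. Genes with an optimal and no conservative peak numbered 10, among them RpL12, RpL17, RpL24, RpL39, RpLP1 and RpS3A.

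The replicates ordered the ribosomal protein genes in much the same way. Over the 53 genes with a peak in both single-replicate lists, Spearman's rho between the signals was 0.908, as a description across genes, which share their 2 libraries and are not replicates. Over the 4143 protein-coding genes with a peak in both lists it was 0.916. The ratio of replicate 2 to replicate 1 had a median of 1.31 (range 0.77 to 3.38) over the 53 genes and 1.44 over all 4143, and replicate 2 was the higher one at 43 of the 53 (81.1%) and at 92.3% of all genes. Whether the 2 scales can be compared is not stated.

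The replicate 2 list held a peak at 21 ribosomal protein genes that the replicate 1 list lacked (22.6%, against 15.2% of all genes), and none showed the opposite pattern (0.687% of all genes did). The highest of the 21 in replicate 2 were RpL14 (168.1), RpL37A (122.1), RpL3 (118.1), RpL9 (105.6) and RpL17 (97.7). In the replicate 1 ranked list the same genes had 61.8 for RpL14, 32.0 for RpL37A, 52.5 for RpL3, 27.6 for RpL9 and 28.5 for RpL17. The 21 genes had weaker replicate 2 peaks, at 42.3 to 168.1 with a median of 77.5, than the 53 genes in both lists, at 55.9 to 1145 with a median of 223.6, and the 2 ranges overlapped. Of the 21, 14 had an entry in the replicate 1 ranked list. The replicate 2 list was also the longer one, with 7340 peaks against 3997 in replicate 1. RpS15 and RpS19a had a conservative peak and none in either single-replicate list.

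Summits lay mostly just upstream of the TSS. The median position of the 61 highest summits was -62 bp relative to the nearest TSS of the gene (quartiles -136 and -19 bp), against -60 bp for all 5565 genes with a peak (quartiles -133 and -14 bp). Upstream summits numbered 49 of 61 (80.3%), against 80.2% of all genes with a peak, and 62.3% lay within 100 bp of the TSS, against 61.3%. In the conservative list neither measure set the ribosomal protein genes apart from the other genes with a peak. Upstream summits made up 83.0% in replicate 1, against 83.5% of all genes, and 68.9% in replicate 2, against 78.1%. In replicate 2 the median was -43.5 bp for ribosomal protein genes and -54 bp for all genes, and in replicate 1 it was -63 bp and -67 bp.

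**Figure D3:**
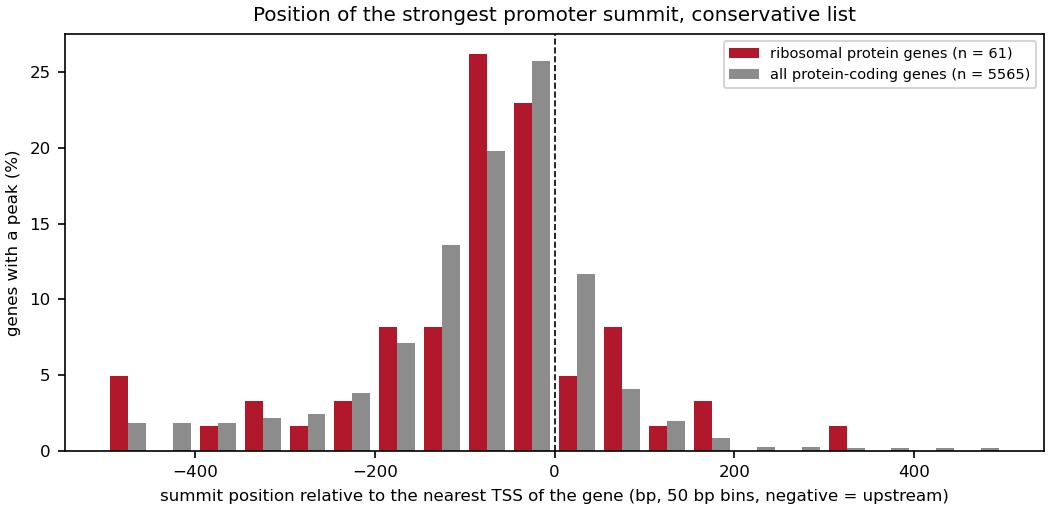
Position of the highest conservative summit relative to the nearest TSS of the gene (x axis, bp on the gene's strand in 50 bp bins, negative values upstream) as a percent of genes with a peak (y axis), for 61 ribosomal protein genes and all 5565 protein-coding genes with a peak. In both sets the 2 bins from -100 bp to the TSS are the fullest, with 26.2% and 23.0% of the ribosomal protein genes.

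Just inside the limit of 500 bp lay the nearest conservative summits of RpLP2 (452 bp) and RpS19b (454 bp), with signals of 311.8 and 116.7. Just outside lay that of RpL23 (545 bp, signal 98.1).

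Some of these promoters lie close to the TSS of another gene. At 38 ribosomal protein genes the TSS of another protein-coding gene lay within 500 bp, and 30 of the 38 had a conservative peak (78.9%), against 68.8% of all genes with such a neighbour. At the other 55 the promoter stood alone, and 31 had a peak, 56.4% with an interval of 42.3% to 69.7%, against 26.9% of all genes with no such neighbour. The share was also above that of all genes where no TSS of another protein-coding gene lay within 500 bp of the gene's own. A peak there can still be counted at another gene, as was the peak of RpS6, also counted at bys (312.5). In the single lists 28 of the 55 had a peak in replicate 1 (50.9%, against 18.8%) and 41 in replicate 2 (74.5%, against 32.3%). The median conservative signal was 340.0 at promoters with such a neighbour and 348.0 at promoters that stood alone.

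Of the 61 highest summits, 47 lay nearest to the TSS of the ribosomal protein gene itself and 14 nearer to that of another gene. This split was not counted for all genes. Counting any peak, 50 of the 61 ribosomal protein genes had a summit nearest to their own TSS. Of all 5565 genes with a peak, 4337 did. Among the 20 ribosomal protein genes with the highest signal, 5 had their highest summit nearer to another gene. The RpL34a summit was 118 bp from its own TSS and 111 bp from that of Trmt61, and the RpS28a summit was 325 bp from its own and 102 bp from that of Mgat2. The RpS25 summit was 139 bp from its own TSS and 109 bp from that of CG4820, and the RpL41 summit was 152 bp from its own and 30 bp from that of NaCP60E. The TSS of Dref itself lies within 500 bp of that of RpL13. The RpL13 summit had a signal of 481.9 in the conservative list, 217.5 in replicate 1 and 276.8 in replicate 2. It lay 78 bp from the TSS of Dref and 162 bp from that of RpL13. Which gene such a peak belongs to cannot be told apart from these data.

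Promoters were searched from 250 bases before to 50 bases after each TSS, and a gene was counted when any of its windows held the motif. With their higher mean number of TSSs, the ribosomal protein genes had more windows. The DRE (TATCGATA on either strand) was found at 28 of the 93 (30.1%), against 10.2% of all genes, the Ohler 7 motif (CANCNCTA) at 30 (32.3%), against 18.4%, and the M1BP site (GGTCACAC) at 16 (17.2%), against 8.70%. Other letters were rarer here than among all genes. The E-box CAGCTG was found at 11 ribosomal protein genes (11.8%, against 22.3%) and GAGAG, part of the GAGA factor (GAF) site, at 19 (20.4%, against 36.3%). The TATA box, searched as TATAAA 40 to 20 bases upstream of a TSS, was found at RpL39 alone (1.08%, against 8.46%), and the initiator (Inr) TCAGT at RpL23A alone (1.08%, against 14.0%).

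The TCT initiator, searched as TCTTTT or CCTTTT on the gene's strand with its second base within 5 bases of a TSS, was found at 28 ribosomal protein genes, 30.1% with an interval of 21.0% to 40.5%, against 1.20% of all genes. Of all 167 genes with this initiator, 28 were ribosomal protein genes. The count moves with the distance allowed from the annotated TSS, with 7 ribosomal protein genes at 2 bases (7.53%, against 0.523% of all genes) and 51 at 10 bases (54.8%, against 2.45%). A conservative peak was present at 20 of the 28 with the initiator (71.4%) and at 41 of the 65 without it (63.1%). Among all genes the shares were 53.9% with it and 39.7% without it.

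**Figure D4:**
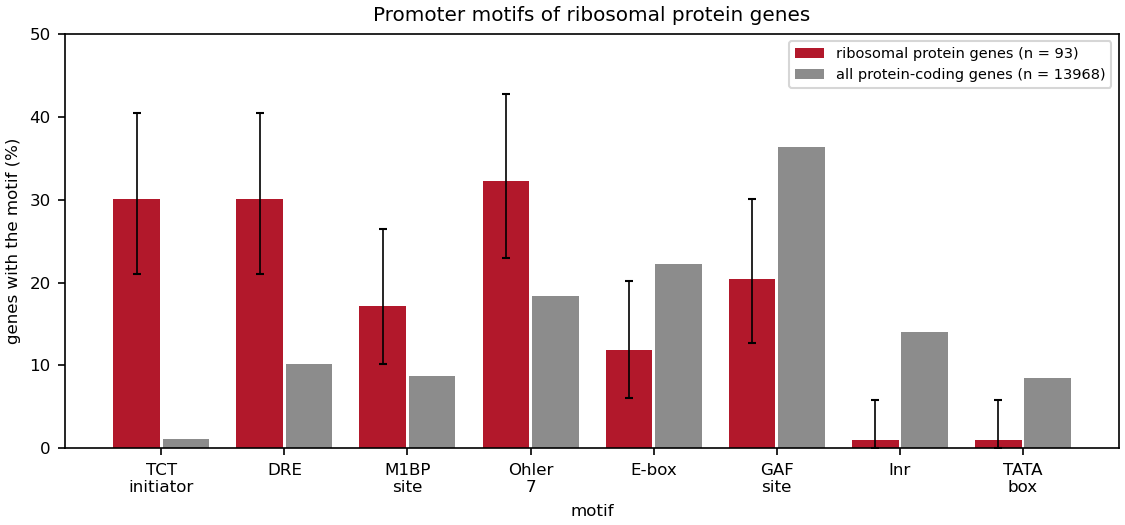
Share of genes with a motif in a promoter window (y axis, percent) for 8 motifs (x axis), in the 93 ribosomal protein genes and in all 13968 protein-coding genes. Error bars are exact 95% intervals of the ribosomal protein genes' share. The TCT initiator (30.1% against 1.20%) and the DRE (30.1% against 10.2%) were more frequent among ribosomal protein genes, and the GAF site, the Inr and the TATA box less frequent.

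The share of ribosomal protein genes with a peak differed more by the DRE than by the TCT initiator. Of the 28 ribosomal protein genes with a DRE, 27 had a conservative peak (96.4%), against 87.2% of all genes with a DRE, and RpL39 was the exception. Of the 65 without a DRE, 34 had one (52.3%), against 34.5% of all genes without a DRE. At the promoters that stood alone, a peak was present at 14 of 15 genes with a DRE and at 17 of 40 without. The shares of all genes in these classes were not counted, so these counts have no background beside them. The median signal of the highest peak was 452.0 at the 27 genes with a DRE and a peak, and 212.5 at the 34 genes with a peak and no DRE. These are counts over genes of 1 set of libraries, and no test was run on them.

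The other motifs showed smaller differences. An M1BP site was present at 10 of the 61 ribosomal protein genes with a peak (16.4%) and at 6 of the 32 without (18.8%), whereas among all genes it was present at 15.9% of those with a peak and 3.95% of those without. The Ohler 7 motif was present at 25 of the 61 (41.0%) and at 5 of the 32 (15.6%), against 30.2% and 10.6% among all genes. Many of these promoters had neither the DRE nor the M1BP site. Of the 52 ribosomal protein genes with neither, 27 had a peak (51.9%), against 31.3% of all genes with neither.

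**Figure D5:**
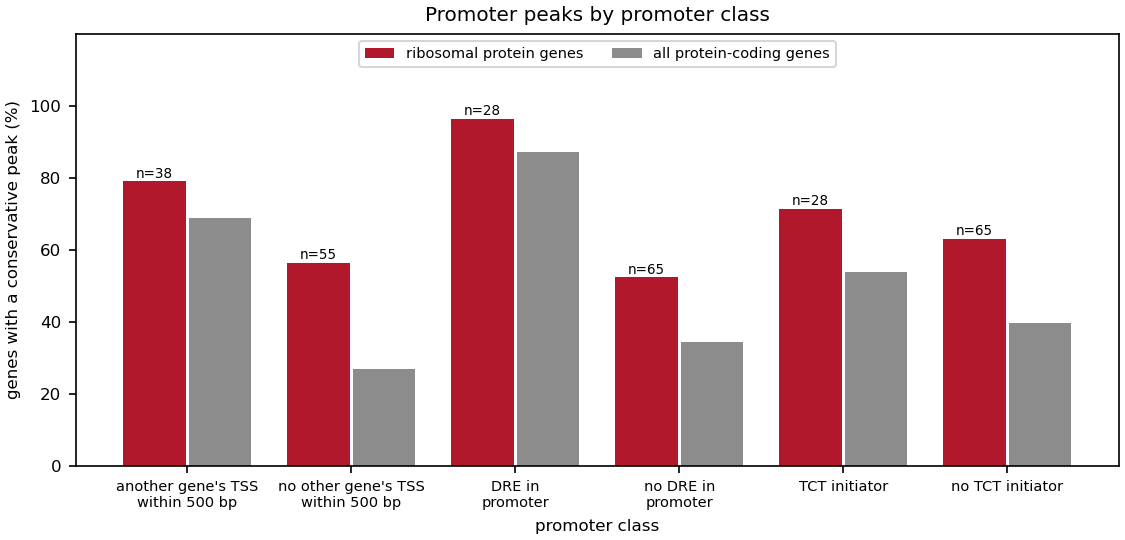
Share of genes with a conservative peak (y axis, percent) by promoter class (x axis), for the ribosomal protein genes (number of genes above each bar) and for all protein-coding genes. The share was 96.4% at the 28 ribosomal protein genes with a DRE and 52.3% at the 65 without, and 56.4% at the 55 whose promoter stood alone.

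Few motifs lay right under the summits. Within 50 bases of the 61 summits, Ohler 7 was found at 14 (23.0%, interval 13.1% to 35.5%), against 9.72% of all 5020 promoter summits, and the DRE at 11 (18.0%, interval 9.36% to 30.0%), against 652 of the 5020. The DRE core ATCGAT, added after the sequences had been seen, was found at 17 of the 61 (27.9%), against 26.7% of all promoter summits. The E-box was found at 4 (6.56%, against 10.9%), the M1BP site at 2 (3.28%, against 5.26%) and GAGAG at 1, that of RpL13 (1.64%, interval 0.0415% to 8.80%, against 13.2%). Of the 20 ribosomal protein genes with the highest signal, 12 had none of these 5 motifs there, RpL32 and RpS7 among them. The DRE was found under the summits of RpL6, RpS29 and RpS30, Ohler 7 under those of RpL11, RpS2 and RpS28a, and the M1BP site under that of RpL7. In 51 bp windows the DRE was found at 8.20% of these summits, against 7.45% of all promoter summits, at 5.66% against 10.1% in replicate 1 and at 4.05% against 6.21% in replicate 2. Ohler 7 was found there at 9.84% against 4.20%, at 7.55% against 5.50% in replicate 1 and at 8.11% against 4.10% in replicate 2.

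No filtered list held a peak at 15 ribosomal protein genes. Of these, 6 had no entry in any ranked list either, namely RpL10Aa, RpL15, RpL22-like, RpL37-2, RpL38 and RpS28-like. RpL15 and RpL38, both large-subunit genes, lay 0.842 Mb and 4.52 Mb from the centromere end of the assembled arm. At about the distance of RpL38, RpS10b (3.94 Mb, signal 670.9) and RpL30 (4.50 Mb, signal 422.0) had a conservative peak. RpL10 (5.01 Mb), RpS26 (5.07 Mb), RpL35A (5.47 Mb) and RpL13A (5.62 Mb) had none. Nearer the centromere end, RpL5 (0.977 Mb) and RpL21 (1.27 Mb) also had none. The nearest conservative summit lay 2731161 bp from RpL15 and 822907 bp from RpL38. A link between position and peaks was not tested. RpL10Aa, RpL22-like and RpL37-2 are paralogs of genes that had a conservative peak. The nearest conservative summit to RpS28-like lay 733 bp away.

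The other 9 had weak ranked entries, with 1 exception. In the conservative ranked list the signals included 99.3 at RpS26, 66.5 at RpS10a, 53.1 at RpL7A and 29.6 at RpS5b. RpL5, which binds the 5S ribosomal RNA together with RpL11, had 37.8 in the replicate 2 ranked list and none in that of replicate 1, whereas RpL11 had 655.6 in the conservative list, 254.1 in replicate 1 and 401.7 in replicate 2. RpL10, a protein that in yeast joins the 60S subunit late in its assembly, had 65.8 in the replicate 2 ranked list and none in the conservative ranked list or that of replicate 1.

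The exception was RpL13A, a large-subunit gene with entries of high signal that no filtered list held. Its signal was 1181 in the conservative ranked list (rank 103 of 27436), 527.2 in that of replicate 1 (rank 98 of 24422) and 632.9 in that of replicate 2 (rank 137 of 36753). The conservative ranked entry covered chr3R:5623879-5624521 of dm6, with its summit 272 bp upstream of the TSS. By signal it would have stood between RpS2 and RpS30. A second entry, nearer the TSS, had 32.4 in the conservative ranked list. In the ranked lists of replicates 1 and 2 the second entry had 50.8 and 118.8. Dph4 and Spec2 each have a TSS within 500 bp of that of RpL13A. Which gene the entry of 1181 belongs to cannot be told apart from these data.

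For 13 pairs, both members of a pair of related genes were set side by side, and the pairs include genes known mainly from the germline, such as RpL22-like, RpS5b and RpS10a. Both copies had a conservative peak in 7 pairs and 1 copy in 6. The copy without a peak was RpL10Aa (RpL10Ab had 256.1), RpL22-like (RpL22 had 187.3), RpL37-2 (RpL37-1 had 410.8), RpS5b (RpS5a had 370.3), RpS10a (RpS10b had 670.9) and RpL24 (RpL24-like had 328.0). In each of the first 5 the copy with a peak also had one in both replicates, from RpL22 with 51.5 in replicate 1 and 142.1 in replicate 2 up to RpS10b with 304.3 and 371.7. RpL24 runs the other way. RpL24-like, whose yeast counterpart acts in ribosome assembly rather than in the finished ribosome, had its summit 161 bp from its own TSS and 5 bp from that of CG5276, and RpL24 had a peak in replicate 2 (94.5).

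In the 7 pairs with a peak at both copies the levels were often unequal. RpL34a had 795.4 against 146.8 at RpL34b, and RpS28a 736.9 against 179.5 at RpS28b. RpL7 had 727.0 against 331.1 at RpL7-like, and RpLP0-like, related to another yeast assembly factor, had 382.3 against 209.6 at RpLP0. RpS14b had 412.6 and its tandem copy RpS14a 326.1. The highest summit of RpS14a was 466 bp from its own TSS and 56 bp from that of Dhdds. A second conservative peak of RpS14a, 237 bp from its TSS, had a signal of 304.8. RpS15Ab had 283.5 against 131.1 at RpS15Aa, and RpS19a 147.1 against 116.7 at RpS19b. The highest summits of RpL34a, RpS28a, RpS19a and RpS19b were nearer to a neighbour too. That of RpS19a lay 322 bp from its own TSS and 158 bp from that of Rok. That of RpS19b lay 454 bp from its own TSS and 72 bp from that of CG5854. RpS28a also had a weaker conservative peak nearer its TSS, at 123 bp, with a signal of 178.1, close to that of RpS28b.

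By arm, conservative peaks were present at 13 of 15 ribosomal protein genes on X (43.2% of all genes there), 15 of 23 on 3R (39.9%), 14 of 21 on 2R (41.8%), 9 of 14 on 3L (39.1%), 10 of 19 on 2L (36.8%) and not at RpS3A, the 1 member on chromosome 4 (12.5%). Other genes of the translation machinery were counted in the same way, from lists drawn up with earlier results known. Among 73 mitochondrial ribosomal protein genes 59 had a conservative peak (80.8%), among 24 genes of ribosome assembly and RNA polymerase I 19 (79.2%), among 44 translation initiation factor genes 27 (61.4%) and among 9 factors linked to ribosomal protein promoters 6, beside 65.6% of cytosolic ribosomal protein genes and 39.8% of all genes. In replicate 1 the shares were 57.0% of cytosolic ribosomal protein, 57.5% of mitochondrial ribosomal protein, 54.2% of assembly and polymerase and 47.7% of initiation factor genes, beside 30.3% of all genes. In replicate 2 they were 79.6% of cytosolic ribosomal protein, 84.9% of mitochondrial ribosomal protein, 87.5% of assembly and polymerase and 68.2% of initiation factor genes, beside 44.9% of all genes. The second of these lists includes Rrp1, a DNA repair gene entered by mistake. The median percentile of the highest peak was 74.7 at cytosolic ribosomal protein genes, 60.8 at mitochondrial ones, 67.6 at assembly and polymerase genes and 71.2 at initiation factor genes. Differences between these lists were not tested. The lists overlap, since eIF6 is in 2 of them and some peaks are counted in 2. Such peaks include that of RpL28 and eIF1 (348.8) and that of RpS6 and bys (312.5). Among the promoter factors Dref (481.9, the summit shared with RpL13) and the putzig gene pzg (303.5) had the highest conservative signals, and M1BP had a peak in none of the filtered lists.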

How the data were processed

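The members and the other gene lists were chosen with earlier results of these data known. Per the labels, ChIP-seq used an anti-GFP antibody and chromatin sonicated to 200 to 800 bp. Per the deposited listing, all lists were made from filtered alignments, and 1 further input of unstated content went into the 4 filtered ones. Aligner, caller and control scaling were not given in the sources used here. In each list the deposited signal is a value per peak from the caller, and the deposited score is a scaled irreproducibility score capped at 1000. The 4 ranked lists precede the filter. Only lists of both replicates and of each replicate were used, on the 7 arms, and depth is unknown.

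Summits (start plus offset) were set against TSSs of protein-coding genes (Ensembl release 115, dm6 coordinates). Motifs were searched in the Release 6 genome. Python 3.11.15, pandas 2.3.3 and scipy 1.17.1 were used, and counting was checked on simulated peaks. There is 1 group, so no test was run, and shares carry exact Clopper-Pearson 95% intervals. Genes were named by fixed rules: the 12 highest signals, every member in no filtered list, the 5 highest seen in replicate 2 alone, paralog pairs, RpLP0, RpLP1, RpLP2 and sta, neighbours nearer among the 20 highest, and the 3 lowest. A few members are counted but not reported here by name. Other genes named (RpL5, RpL11 and RpLP1's neighbourhood among them) and the sequences were chosen after their values were seen. Alternatives were another list, distance, signal limit, TSS rule, motif window and initiator tolerance, with genes of 1 TSS and the DRE core added after seeing the data.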

Additional observations from a re-analysis of the deposited data

Results flagged for a closer look

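RpL13A had a signal of 1180.92 in the conservative ranked list, with a scaled score of 1000, although the filtered lists hold entries down to a score of 830. It was picked out because the filtered lists, on which the counts rest, do not hold this entry. In that ranked list 6145 peaks on the arms reached 830, 5955 were kept and 190 were not, and RpL13A was the 1 ribosomal protein gene with an entry of this kind there. The same held in the optimal list (7233 reached, 7026 kept), in replicate 1 (4118 reached, 3997 kept) and in replicate 2 (7547 reached, 7340 kept). What the further file behind the filtered lists removed was not tested.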

How the results depend on the processing

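Over 11 results and 73 alternatives, 47 values stayed within the interval or spread of the reported one and 26 moved further. The cause was not tested. The share of ribosomal protein genes with a peak (65.6%) was 75.3% in the optimal list, 50.5% with peaks above the median signal and 53.8% when the summit had to lie nearest to the gene's own TSS. That of all genes (39.8%) was 43.7%, 26.5% and 31.0% under the same choices, 35.0% at 200 bp, 42.7% at 1000 bp, 26.9% at promoters that stand alone and 34.5% at genes with 1 TSS. Leaving out a replicate gave 57.0% to 79.6% for ribosomal protein genes and 30.3% to 44.9% for all genes. Large-subunit genes gave 46.9% at promoters that stand alone (55.6% to 79.6% leaving out a replicate) and small-subunit genes 48.7% above the median signal (59.0% to 79.5%). The median percentile was 58.8 above the median signal and 71.7 at genes with 1 TSS (68.7 to 72.5 leaving out a replicate). The median summit position was -40.5 bp with own TSSs nearest and -43.0 bp at promoters that stand alone (-63.0 to -43.5 leaving out a replicate). In 51 bp windows the DRE was at 8.20% (7.45% of all promoter summits) and Ohler 7 at 9.84% (4.20%). The TCT initiator gave 7.53% at 2 bases and 54.8% at 10 bases. Leaving out a replicate gave 16.2% to 22.6% for the DRE and for Ohler 7, 2.70% to 3.77% for the M1BP site and 8.11% to 11.3% for the E-box. No paired analysis was possible because there is 1 group. With no read counts, an absent peak does not show that binding is absent.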
